A study of Arabidopsis thaliana and Solanum lycopersicum with 40 samples.

Results

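The level of 10 Arabidopsis thaliana genes that make chlorophyll or regulate its synthesis was followed in roots of seedlings left unshaded or moved to shade. The genes were taken by locus identifier from the deposited expression table, in which they are 10 of 33557 entries. The regulators are GLK1 (AT2G20570), GLK2 (AT5G44190) and GNC (AT5G56860). The enzymes and their cofactor are HEMA1 (AT1G58290), GUN4 (AT3G59400), CHLH (AT5G13630), PORA (AT5G54190), PORB (AT4G27440), PORC (AT1G03630) and CAO (AT1G44446).

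All plants were of the Col-0 ecotype, with no mutation or transgene named in the labels, and had grown on MS agar for 5 days in continuous white light. They were then held without shade or moved into shade, and roots were taken after 30 min, 3 h, 7 h, 1 d, 3 d and 5 d. This gave 12 groups of light and time with 2 RNA sequencing libraries each, 24 in all. The labels do not say whether the 2 libraries of a group came from separate cultures, so p-values measure the spread between these libraries, which may be technical. The spectrum and intensity of the shade are not given in the sources used here.

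Levels were deposited as FPKM, fragment counts corrected for the length of the transcript and the size of the library, so the absolute depth is unknown. Depth relative to the mean library, read from the steps between low values, ranged from 0.843 to 1.47. It was 1.47 and 0.943 in the shaded libraries of 5 d and 0.877 and 0.870 in the unshaded ones. All 11 genes listed as root markers were expressed, with summed levels of 5938 to 10810 FPKM in shaded and 6371 to 9547 in unshaded libraries. Most of that sum was PYK10, a root beta-glucosidase. The other 10, summed without PYK10 after its value was seen, came to 270 to 354 FPKM in shaded and 266 to 331 in unshaded libraries. Of 10 genes listed for shoot identity, 3 were listed at 0 in every library. PDF1, a gene of the outer cell layer and one of these 10, was present in all libraries. It ranged from 10.6 to 42.7 FPKM in shaded and from 23.5 to 146 in unshaded libraries. The other 9, counted without PDF1 after its value was seen, summed to 0 to 0.407 FPKM in shaded and 0.0340 to 0.281 in unshaded libraries. A list of 6 photosynthesis genes, RUBISCO small subunits with RCA and SBPASE, summed to 66.8 to 124 FPKM in shaded and 34.0 to 91.0 in unshaded libraries. Most of that sum was RBCS1A and RCA, with means of 40.1 and 27.7 FPKM over the 24 libraries, and SBPASE had 3.96. RBCS1B, RBCS2B and RBCS3B had means of 0.0272, 0.0565 and 0.273 FPKM. These 3 were listed at 0 in 18, 21 and 8 of the 24 libraries.

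Chlorophyll is made in plastids from aminolevulinic acid by a tetrapyrrole pathway shared with haem. HEMA1 encodes the glutamyl-tRNA reductase that makes the first committed precursor. CHLH is the large subunit of magnesium chelatase, which directs protoporphyrin into the chlorophyll branch, and GUN4 binds porphyrins and stimulates that enzyme. The POR enzymes reduce protochlorophyllide to chlorophyllide in a light-driven step, and CAO forms chlorophyll b from the a form. GLK1 and GLK2 are transcription factors that activate chlorophyll and antenna genes in leaves, and GNC is a GATA factor with a role in greening. Arabidopsis roots hold mostly non-green plastids, and greening of roots in light is known to depend on GLK2 and on the light regulator HY5.

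Sequence directly upstream of the annotated gene start is shown for 3 genes that were higher in shade for most of the course, CAO, HEMA1 and GLK2, and for CHLH, which was lower at the late times. These windows of 150 bases, in RefSeq's TAIR10.1 assembly, run 5′ to 3′ on the strand of the gene and end at the base before its start. Capitals mark matches, on either strand, to letters searched for in all 10 genes. These were the G-box CACGTG, the related PBE-box CACATG bound by phytochrome-interacting factors, the I-box GATAAG, and GATTCT and CCAATC, both described in promoters of GLK targets.
CAO, minus strand, chr1:16851272-16851421: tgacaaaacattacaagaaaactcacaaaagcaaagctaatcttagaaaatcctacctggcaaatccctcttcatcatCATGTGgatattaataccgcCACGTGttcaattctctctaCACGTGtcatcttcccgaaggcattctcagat
HEMA1, minus strand, chr1:21626403-21626552: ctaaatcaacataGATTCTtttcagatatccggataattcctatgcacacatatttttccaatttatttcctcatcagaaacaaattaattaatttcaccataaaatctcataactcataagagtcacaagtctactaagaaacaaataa
GLK2, plus strand, chr5:17798112-17798261: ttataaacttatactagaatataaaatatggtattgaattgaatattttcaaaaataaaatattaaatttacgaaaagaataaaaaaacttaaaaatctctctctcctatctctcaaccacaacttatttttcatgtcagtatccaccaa
CHLH, minus strand, chr5:4392430-4392579: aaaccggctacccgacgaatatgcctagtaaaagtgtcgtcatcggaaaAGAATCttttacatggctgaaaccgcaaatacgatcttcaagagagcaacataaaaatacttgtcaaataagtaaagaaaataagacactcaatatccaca
CAO held a pair of G-boxes, at 52 and 32 bases before the gene start, and a PBE-box at 72 bases before it. HEMA1 and CHLH, which moved in opposite directions in shade, each held GATTCT, and the window of GLK2 held none of these letters. In longer windows of 250 bases, the G-box was present in 1 of the 10 genes and in 6.49% of 27443 protein-coding genes. The PBE-box was present in 1 of 10 and in 11.1% of all, and the I-box in 2 of 10 (GLK1 and PORA) and in 12.3% of all. GATTCT was found in 3 of 10 (HEMA1, CHLH and GUN4) and in 15.9% of all, and CCAATC in 2 of 10 (GUN4 and PORB) and in 10.2% of all. A match is a run of letters and not a site, and the windows of GUN4, PORB and PORC, which overlap a neighbouring gene, are not printed.

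Over the 24 libraries HEMA1 had the highest mean level, 23.0 ± 5.42 FPKM (SD, n = 24), followed by CHLH at 17.1 ± 3.56. The median tested gene had a mean of 14.8 FPKM, so these entries to the pathway and to its chlorophyll branch lay above the middle of the root transcriptome. A second tier held GLK2 at 5.80 ± 1.35, CAO at 4.82 ± 1.64, PORB at 4.71 ± 2.53, GUN4 at 3.37 ± 1.56 and PORC at 2.37 ± 0.845 FPKM. From GLK2 down to GUN4, neighbours in this order differed by less than either gene's SD, which includes the changes with light and time. GUN4 and PORC differed by more than the SD of PORC and less than that of GUN4. GNC at 0.688 ± 0.322, GLK1 at 0.197 ± 0.110 and PORA at 0.0573 ± 0.0752 were below the minimum mean of 1 FPKM required for testing. In unshaded roots alone HEMA1 and CHLH had the same mean, 18.9 ± 1.50 and 18.9 ± 2.07 FPKM (SD, n = 12).

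**Figure D1:**
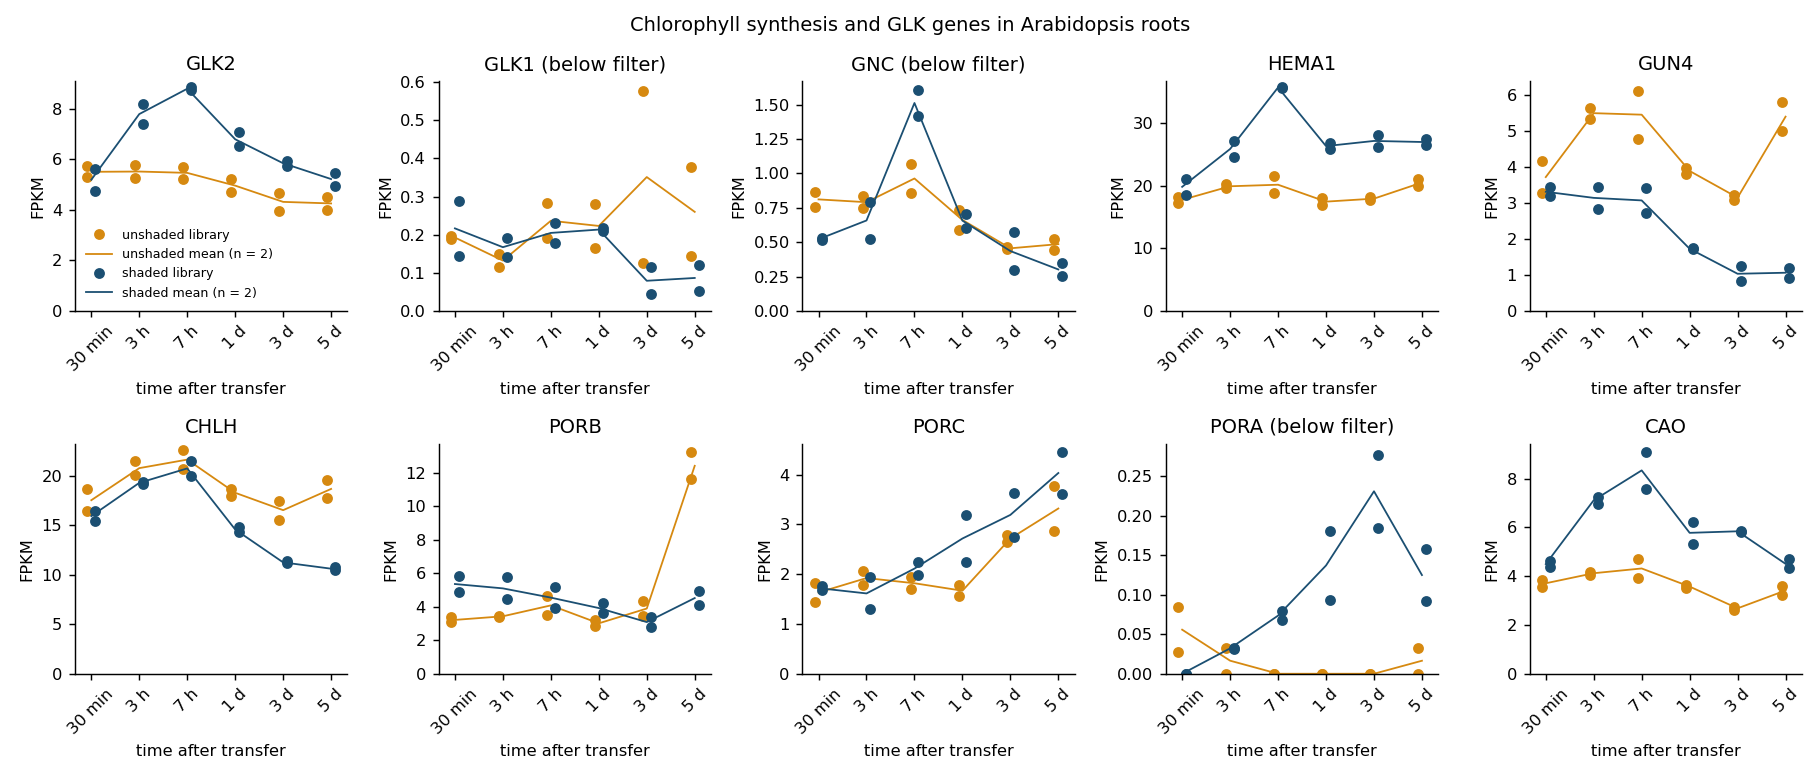
FPKM of each of the 10 genes (vertical axis, own scale from 0) against time after transfer, with 1 point per library and lines through the group means (n = 2). Shaded libraries (blue) lie above unshaded ones (orange) for HEMA1 and CAO at every time and below them for GUN4 from 3 h on, and unshaded PORB is high at 5 d.

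Differences were tested with limma on log2(FPKM + 1) and called at an adjusted p-value under 0.05, for the 7 of the 10 genes that passed the minimum mean, among 19553 genes. Fold changes on this scale understate the change of genes with low values. At 30 min 1 of the 7 was called, higher in shade, where 5.98% of all genes tested were called, 3.69% higher and 2.29% lower. At 3 h 5 were called, 4 higher and 1 lower, against 25.6% of all genes, of which 15.2% were higher and 10.5% lower. The gene called at 30 min was PORB. At 3 h PORB, GLK2, HEMA1 and CAO were higher and GUN4 was lower.

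At 7 h 4 were called, 3 higher and 1 lower, against 41.9% of all genes (21.3% higher and 20.6% lower). At 1 d 6 were called, 4 higher and 2 lower, against 50.9% (28.3% and 22.6%). At 3 d 5 were called, 3 higher and 2 lower, against 58.2% (28.6% and 29.6%), and at 5 d 6 were called, 3 in each direction, against 55.9% (22.2% and 33.7%). With so large a share of all genes called, the late counts say little about these genes, and their directions and sizes are described instead. GLK2, HEMA1 and CAO were higher at each of these 4 times, joined by PORC at 1 d. GUN4 was lower at each of them, CHLH from 1 d on and PORB at 5 d.

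Averaged over the 6 times 5 of the 7 were called, 3 higher and 2 lower, against 70.5% of all genes (34.6% higher and 35.9% lower). Their median log2 fold change was 0.15, and that of all genes tested -0.01. The shade effect differed between times in the interaction test for 6 of the 7, PORC being the exception, against 55.8% of all genes. From 7 h to 5 d the effect became lower for 5 of the 7, where 26.1% of all genes changed, 16.4% to a lower and 9.64% to a higher effect. The median change in effect was -0.49 for the 7 genes and -0.08 for all genes. With time all 7 changed in unshaded roots, against 34.3% of all genes, and all 7 in shaded roots, against 71.4%. The unshaded count was 5 to 7 when 1 library was left out, and HEMA1 (adjusted p = 0.0485) lost its call in most of those fits. Scaling bears on direction: as deposited, higher genes made up 59.2% of calls at 3 h and 39.7% at 5 d, but 48.9% and 50.7% once libraries were scaled by the median of ratios.

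**Figure D2:**
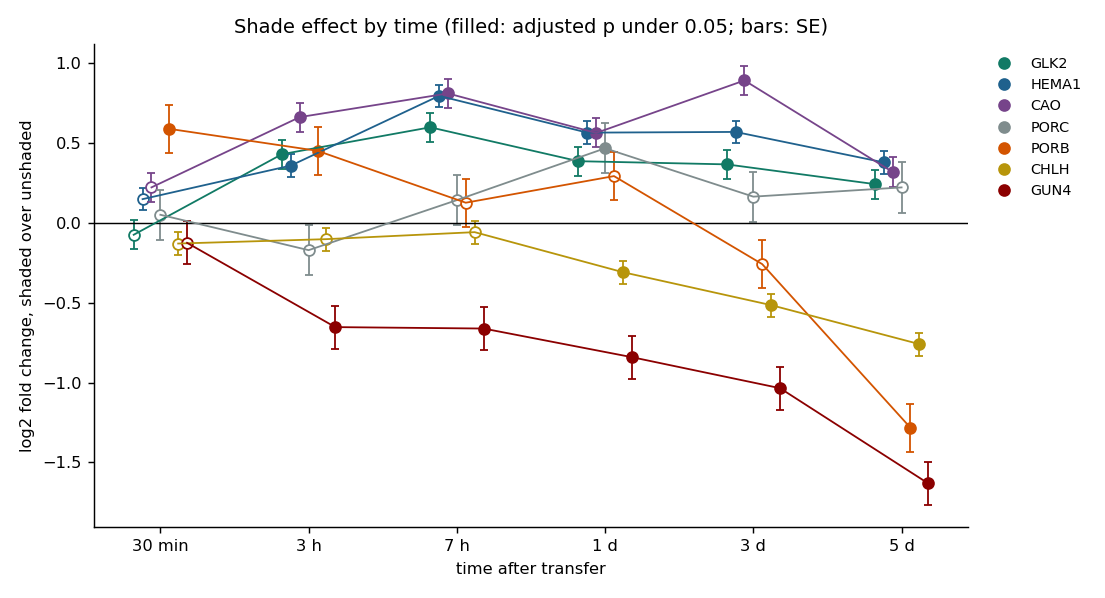
Log2 fold change of FPKM + 1, shaded over unshaded (vertical axis), at each time after transfer for the 7 genes tested, with bars of 1 SE and filled points where the adjusted p-value was under 0.05. GLK2, HEMA1 and CAO stay above 0 from 3 h on, GUN4 and CHLH move down to -1.63 and -0.76 at 5 d, and PORB goes from 0.59 to -1.28.

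Among the regulators GLK2 was the one expressed above the minimum level, and it was higher in shade from 3 h to 5 d. In shaded roots it stood at 4.76 and 5.61 FPKM at 30 min, 8.18 and 7.38 at 3 h, 8.72 and 8.84 at 7 h, 7.05 and 6.52 at 1 d, 5.74 and 5.93 at 3 d, and 4.96 and 5.47 at 5 d. In unshaded roots it stood at 5.28 and 5.72 at 30 min, 5.77 and 5.25 at 3 h, 5.68 and 5.24 at 7 h, 4.70 and 5.21 at 1 d, 4.68 and 3.94 at 3 d, and 4.52 and 3.98 at 5 d. Shaded and unshaded libraries overlapped at 30 min and at no later time. Groups without overlap were common: 51.2%, 58.9%, 71.9%, 76.3%, 80.5% and 75.2% of all genes tested had none, in order of time. In whole roots, a change in the number of cells of a type and a change in RNA per cell cannot be told apart, here and for every gene below.

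The GLK2 effect was largest at 7 h, where mean FPKM was 1.61-fold higher in shade (log2 fold change 0.60 ± 0.09, SE, adjusted p = 9.72e-05). Averaged over the times the log2 fold change was 0.33 ± 0.04 (SE, adjusted p = 1.31e-06). The level changed with time in both lights (adjusted p = 0.0225 unshaded and 4.01e-05 shaded), and from 30 min to 7 h it went up 1.69-fold in shade. The unshaded change lost its call without the second unshaded library of 3 d (0.0524) or of 5 d (0.0688). The call at 5 d was the weakest (log2 fold change 0.24, adjusted p = 0.0334) and was lost without the second shaded library of 5 d (adjusted p = 0.186) or the second unshaded one (0.218).

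GLK1, the partner of GLK2 in leaves, was far lower. Its 12 shaded libraries held 0.0439 to 0.288 FPKM with a median of 0.162, and its 12 unshaded libraries 0.115 to 0.576 with a median of 0.190. Once multiplied by relative depth, these values were whole multiples of 1 step, within a tolerance of 0.1 step, from 2 to 21 steps per library, so each may rest on few fragments. At 3 d the shaded libraries held 0.0439 and 0.115 FPKM and the unshaded ones 0.576 and 0.126, and at 5 d they held 0.120 and 0.0534 against 0.144 and 0.376. Groups did not overlap at these late times, but in a fit of all 26390 genes above 0 GLK1 was called at 0 of the 6 times. In order of time that fit called 3.98%, 18.0%, 30.6%, 38.6%, 45.8% and 45.2% of genes, and 56.7% in the average over times. The smallest adjusted p-value of GLK1 was 0.0532, at 3 d, with 1 time at an unadjusted p under 0.05.

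Within each library the log2 ratio of GLK1 to GLK2, each as FPKM + 1, was -2.69 ± 0.243 in shaded and -2.28 ± 0.232 in unshaded roots (SD, n = 12). The difference of -0.41 passed an exact two-sided permutation test within times (p = 0.000343, adjusted over 3 pairs of relatives 0.00103), and the ratio was lower in shade at 5 of 6 times. With a pseudocount of 0.1 it was -0.70 (adjusted p = 0.00296 in the same exact test). With the pseudocount of 1, GLK1 contributes little because its level lies below it, so the difference of -0.41 mostly repeats that of GLK2. With 0.1, which is below its mean of 0.197 FPKM, GLK1 contributes more, from values of 2 to 21 steps per library. Their coding sequences are 68.3% identical over 1120 aligned bases, with a longest shared run of 24 bases.

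GNC, the GATA factor, rose in shade at 7 h and passed the test at no other time. The 7 h shaded libraries held 1.42 and 1.60 FPKM and the unshaded ones 0.861 and 1.07. Elsewhere shaded libraries ranged from 0.257 at 5 d to 0.793 at 3 h, and unshaded ones from 0.447 to 0.867. Its values spanned 10 to 72 steps, so they carry more fragments than those of GLK1. In the fit without a minimum level, GNC was called at 7 h (log2 fold change 0.36 ± 0.09, SE, adjusted p = 0.00912), where 30.6% of 26390 genes were called. Its effect differed between times (interaction adjusted p = 0.018, with 43.2% of genes called in that fit), falling by 0.55 on the log2 scale from 7 h to 5 d (adjusted p = 0.00921). GNC also changed with time in unshaded roots (adjusted p = 0.0134, 27.2% of genes called) and in shaded ones (2.02e-05, 55.4% called). At 30 min and at 5 d both shaded libraries lay below both unshaded ones, without a call (adjusted p = 0.185 and 0.112).

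HEMA1, the entry enzyme, was higher in shade from 3 h on. In shaded roots it stood at 18.6 and 21.1 FPKM at 30 min, 27.1 and 24.6 at 3 h, 35.6 and 35.7 at 7 h, 25.8 and 26.8 at 1 d, 26.1 and 28.2 at 3 d, and 27.5 and 26.5 at 5 d. In unshaded roots it stood at 18.3 and 17.2 at 30 min, 19.6 and 20.2 at 3 h, 21.5 and 18.8 at 7 h, 16.8 and 18.1 at 1 d, 17.6 and 18.2 at 3 d, and 21.0 and 19.9 at 5 d. Shaded libraries lay above unshaded ones at all 6 times, although at 30 min by a narrow margin and without a call (adjusted p = 0.270).

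Mean HEMA1 was 1.77-fold higher in shade at 7 h (log2 fold change 0.80 ± 0.07, SE, adjusted p = 5.51e-07). The average over times was 0.47 ± 0.03 (SE, adjusted p = 1.15e-09). Between 7 h and 5 d the effect fell by 0.42 on the log2 scale (adjusted p = 0.00648). The shaded level peaked at 7 h and then stayed at means of 26.3 to 27.1 FPKM, while unshaded means stayed within 17.5 to 20.5 FPKM.

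CAO, which forms chlorophyll b, had the largest average rise of the 7. Shaded roots held 4.38 and 4.61 FPKM at 30 min, 6.98 and 7.25 at 3 h, 9.11 and 7.57 at 7 h, 6.22 and 5.34 at 1 d, 5.87 and 5.81 at 3 d, and 4.69 and 4.32 at 5 d. Unshaded roots held 3.85 and 3.57 at 30 min, 4.06 and 4.19 at 3 h, 4.72 and 3.91 at 7 h, 3.50 and 3.65 at 1 d, 2.73 and 2.63 at 3 d, and 3.23 and 3.60 at 5 d. The groups overlapped at no time, and the difference was called from 3 h on.

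The mean of CAO was 1.93-fold higher in shade at 7 h and 2.18-fold higher at 3 d, where the log2 fold change was 0.89 ± 0.09 (SE, adjusted p = 9.47e-07). Averaged over times it was 0.58 ± 0.04 (SE, adjusted p = 2.07e-09). At 5 d the log2 fold change was 0.32 (adjusted p = 0.0076). This call was lost without the first shaded library of 5 d, the deepest one (log2 fold change 0.27), or the first unshaded one (0.26). The drop of 0.49 in effect from 7 h to 5 d (adjusted p = 0.0113) was likewise lost without the first shaded library of 7 h (0.0553) or the second unshaded one (0.0623).

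The photosynthesis sum was higher in shade from 3 h to 3 d, as were GLK2, HEMA1 and CAO, but not at 5 d. It was already higher at 30 min, at 66.8 and 78.0 FPKM against 52.4 and 54.2, without a call for GLK2, HEMA1 or CAO. At 7 h the sum was 113 and 124 FPKM in shaded and 67.4 and 86.6 in unshaded libraries, and at 3 d 78.6 and 82.9 against 34.0 and 43.6. At 5 d it was 73.9 and 82.5 against 77.9 and 91.0, where GLK2, HEMA1 and CAO were still called higher. Of its 6 genes 3 passed the minimum level, and averaged over times RBCS1A rose by 0.77 ± 0.08 and RCA, RUBISCO activase, by 0.27 ± 0.04, while SBPASE, a Calvin cycle enzyme, fell, with a value of -0.19 ± 0.05 (SE, adjusted p = 0.00455). The 9 shoot identity genes without PDF1 summed to at most 0.407 FPKM in any library, and PDF1 itself ranged from 10.6 to 146 FPKM. The part of green tissue in the rises of GLK2, HEMA1 and CAO was not tested.

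GUN4, the activator of magnesium chelatase, fell in shade from 3 h on and had the largest average change of the 7 genes tested. Shaded roots held 3.18 and 3.44 FPKM at 30 min, 3.45 and 2.83 at 3 h, 2.73 and 3.41 at 7 h, 1.71 and 1.74 at 1 d, 0.829 and 1.24 at 3 d, and 0.926 and 1.20 at 5 d. Unshaded roots held 3.26 and 4.17 at 30 min, 5.64 and 5.34 at 3 h, 4.78 and 6.12 at 7 h, 3.79 and 3.98 at 1 d, 3.21 and 3.09 at 3 d, and 5.79 and 5.00 at 5 d. From 3 h on every shaded library lay below every unshaded one of its time. The values were whole multiples of a step, within 0.1 step, at 21 to 160 per library.

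Mean GUN4 was 1.75-fold lower in shade at 3 h and 5.07-fold lower at 5 d, where the log2 fold change was -1.63 ± 0.13 (SE, adjusted p = 1.48e-07). Averaged over times it was -0.82 ± 0.05 (SE, adjusted p = 3.04e-09). The effect deepened by a log2 difference of -0.97 ± 0.19 from 7 h to 5 d (SE, adjusted p = 0.0018). Without the deepest library, the first shaded one of 5 d, the 5 d log2 fold change was -1.54. From 7 h to 5 d the shaded mean went from 3.07 to 1.06 FPKM, and the unshaded mean was 5.45 at 7 h and 5.39 at 5 d. In between, at 3 d, the unshaded mean was 3.15 FPKM, and its 1.71-fold increase to 5 d coincided with the increase of the photosynthesis sum in unshaded roots, from 34.0 and 43.6 to 77.9 and 91.0 FPKM. The part of green tissue in that increase was not tested.

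CHLH, the chelatase subunit that GUN4 acts on, fell in shade from 1 d on. In shade the libraries held 16.4 and 15.4 FPKM at 30 min, 19.2 and 19.4 at 3 h, 20.0 and 21.5 at 7 h, 14.3 and 14.9 at 1 d, 11.1 and 11.3 at 3 d, and 10.7 and 10.5 at 5 d. Without shade they held 16.4 and 18.7 at 30 min, 20.0 and 21.5 at 3 h, 20.6 and 22.6 at 7 h, 17.9 and 18.6 at 1 d, 15.6 and 17.5 at 3 d, and 17.8 and 19.6 at 5 d. In both lights the means went up to 7 h. Shaded libraries lay below unshaded ones at 3 h, by a narrow margin and without a call (adjusted p = 0.333), and at each of the last 3 times.

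At 7 h the log2 fold change of CHLH was -0.06 ± 0.07 (SE, adjusted p = 0.555), and at 5 d it was -0.76 ± 0.07 (SE, adjusted p = 5.59e-07), a mean 1.76-fold lower. The effect changed by -0.70 ± 0.10 between these times (SE, adjusted p = 0.000169). Across the 24 libraries CHLH and GUN4 had a Pearson r of 0.89, a description of libraries that share light and time groups. PDF1 was also lower in shade at 3 d, with 10.6 and 10.6 FPKM in shaded libraries against 133 and 136 unshaded (log2 fold change -3.55 ± 0.25, SE, adjusted p = 2.2e-08). Its effect was smaller at 5 d, at -2.63, while those of CHLH and GUN4 were larger than at 3 d. From 1 d to 3 d the shoot list, nearly all of it PDF1, went from a mean of 49.3 to 134.5 FPKM in unshaded roots. In shaded roots it went from 14.7 to 10.6 FPKM. The photosynthesis sum was higher in shade at 3 d, where CHLH and GUN4 were lower, and at 5 d, where they were lowest relative to unshaded roots, its shaded and unshaded libraries overlapped, as given above. The part of either marker in these falls was not tested.

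PORB was the POR gene with the highest level, and its shade effect changed sign. Shaded libraries held 4.89 and 5.82 FPKM at 30 min, 4.45 and 5.75 at 3 h, 3.93 and 5.16 at 7 h, 4.23 and 3.61 at 1 d, 3.36 and 2.81 at 3 d, and 4.12 and 4.92 at 5 d. Unshaded libraries held 3.36 and 3.06 at 30 min, 3.40 and 3.46 at 3 h, 3.49 and 4.67 at 7 h, 2.83 and 3.19 at 1 d, 3.45 and 4.33 at 3 d, and 13.2 and 11.6 at 5 d. Shaded libraries lay above at 30 min, 3 h and 1 d and below at 3 d and 5 d.

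The early rise of PORB was 1.67-fold at 30 min (log2 fold change 0.59 ± 0.15, SE, adjusted p = 0.028) and 1.49-fold at 3 h (0.45 ± 0.15, SE, adjusted p = 0.0367). The call at 30 min was lost without the second shaded library (adjusted p = 0.262) and without the first or the second unshaded one (0.0769 and 0.175). At 3 h it was lost on leaving out the second shaded library (0.283) or the first or second unshaded one (0.116 and 0.111). The early calls are therefore weak.

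At 5 d PORB was 2.75-fold lower in shade (log2 fold change -1.28 ± 0.15, SE, adjusted p = 4.5e-06), and leaving out 1 library at a time gave -1.39 to -1.18. The effect at 5 d differed from that at 7 h by -1.41 ± 0.21 (SE, adjusted p = 0.000227). The average over times was -0.01 ± 0.06 (SE, adjusted p = 0.858) and hides both directions. This late difference came with a 3.19-fold increase of the unshaded mean from 3 d to 5 d (time in unshaded roots, adjusted p = 3.34e-06), while the shaded mean at 5 d was 1.46 times that at 3 d. The photosynthesis sum went up in unshaded roots over the same interval, from 34.0 and 43.6 to 77.9 and 91.0 FPKM, and its part in the rise of PORB was not tested. In those unshaded libraries the 9 shoot identity genes without PDF1 summed to 0.183 and 0.267 FPKM at 3 d and 0.153 and 0.243 at 5 d. With PDF1 the shoot list summed to 133 and 136 FPKM at 3 d and 129 and 146 at 5 d. The 10 root markers without PYK10 summed to 266 and 285 at 3 d and 278 and 331 at 5 d.

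**Figure D3:**
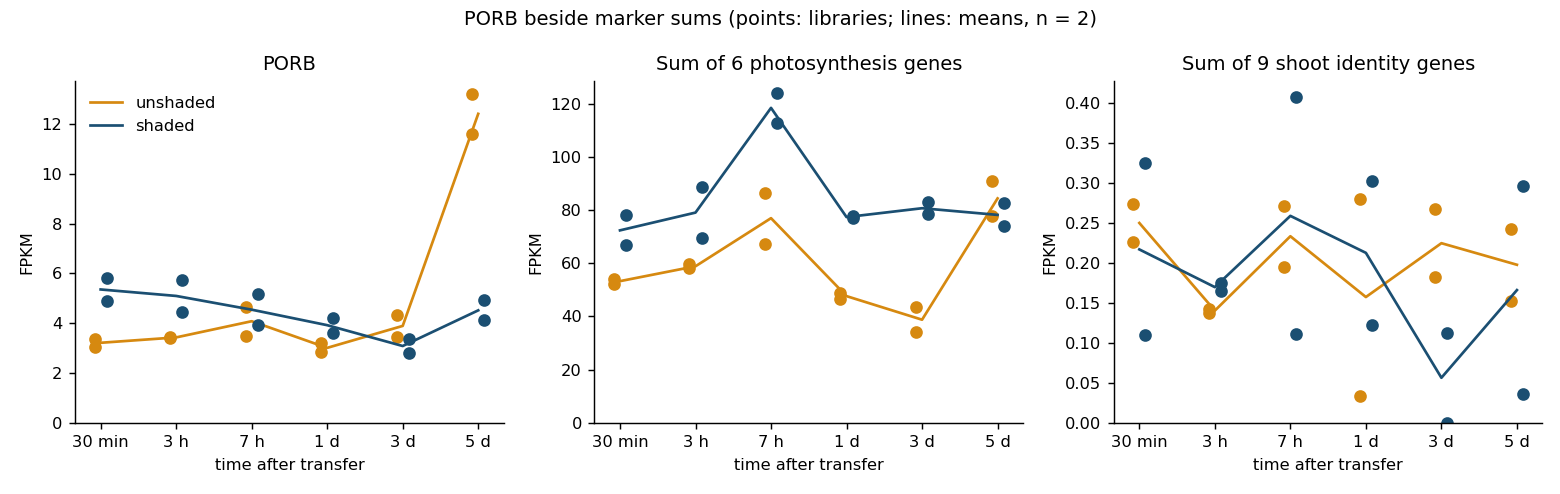
FPKM of PORB (left), the sum over 6 photosynthesis genes (middle) and the sum over 9 shoot identity genes without PDF1 (right) against time after transfer, with points for libraries and lines for means (n = 2). PORB and the photosynthesis sum both go up in unshaded roots (orange) from 3 d to 5 d, and the shoot identity sum stays at or below 0.407 FPKM.

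PORC, another light-dependent POR, showed little effect of shade and a clear change with time. Its 12 shaded libraries ranged from 1.29 FPKM at 3 h to 4.46 at 5 d with a median of 2.25, and its 12 unshaded libraries from 1.43 at 30 min to 3.77 at 5 d with a median of 1.88. From 30 min to 5 d the mean increased 2.34-fold in shade and 2.03-fold without it (time test, adjusted p = 0.000422 and 0.00875). The unshaded change lost its call without the first unshaded library of 5 d (0.0628). Shade effects were called at 1 d alone, with 3.18 and 2.25 FPKM in shaded and 1.78 and 1.56 in unshaded libraries (log2 fold change 0.47 ± 0.16, SE, adjusted p = 0.0219). That call was lost without the first shaded library of 1 d (0.221) or the second unshaded one (0.112). Averaged over times the log2 fold change was 0.15 ± 0.06 (SE, adjusted p = 0.0529), which passed the threshold with equal sums (0.0274) or median-of-ratios scaling (0.0374).

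PORA, known from dark-grown seedlings, was near 0 throughout but was found in more shaded than unshaded libraries. It was above 0 in 10 of 12 shaded and 4 of 12 unshaded libraries, and its highest value was 0.278 FPKM. Shaded libraries held 0.0937 and 0.181 FPKM at 1 d, 0.278 and 0.185 at 3 d, and 0.158 and 0.0920 at 5 d, and at these times 1 unshaded library was above 0, with 0.0330 at 5 d. At 30 min the order was the other way, with 0.0845 and 0.0272 FPKM unshaded and 0 in both shaded libraries. Counted in steps, PORA summed to 46 over the 12 shaded and to 6 over the 12 unshaded libraries, and the highest library had 11. In the fit without a minimum level PORA was called at 1 d, 3 d and 5 d (adjusted p = 0.00248, 3.81e-05 and 0.00955), where 38.6%, 45.8% and 45.2% of 26390 genes were called. No fold is given because the unshaded groups were at or close to 0.

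The POR coding sequences are similar, 83.3% identical between PORA and PORB with a longest shared run of 44 bases, and 74.6% between PORB and PORC. How the authors assigned reads that match more than 1 gene is not given in the sources used here, so the small PORA values are uncertain. In 1 shaded library of 7 h the PORA value was not a whole multiple of a step (2.64 steps). The log2 ratio of PORA to PORB differed by 0.13 between lights (exact permutation p = 0.454, adjusted 0.454), and by 0.71 with a pseudocount of 0.1 (adjusted p = 0.0743). For PORB to PORC the difference was -0.16 (exact permutation p = 0.364, adjusted 0.454), made of 0.54 at 30 min and -1.51 at 5 d.

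The other genes of the pathway are described by lists chosen with earlier results of these data known. For the steps up to protoporphyrin, including those that make aminolevulinic acid, 12 of 14 listed genes were tested. Averaged over times 4 were higher and 5 lower in shade, where 34.6% of all genes were higher and 35.9% lower. HEMA2, a reductase isoform known from roots and other non-green tissue, rose by 0.43 ± 0.02 on the log2 scale (SE, adjusted p = 4.21e-10). HEMA1 rose by 0.47, and the rise of HEMA2 was largest at 3 d, at 0.69 ± 0.06. GSA2, which makes aminolevulinic acid in the next step, fell by 0.27 ± 0.02 on the log2 scale, and HEME2, a uroporphyrinogen decarboxylase, rose by 0.15 ± 0.02. The median log2 fold change was -0.06 for the list and -0.01 for all genes.

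Of the chlorophyll branch, the 7 other genes listed, which may not be all of its genes, were all tested. Averaged over times 2 were higher and 4 lower, against 34.6% and 35.9% of all genes, with a median log2 fold change of -0.24. CHLM, the methyltransferase that follows magnesium chelatase, rose at every time and by 0.85 ± 0.04 on average (SE, adjusted p = 2.04e-10). At 1 d CHLM stood at 27.3 and 32.6 FPKM in shaded and 13.8 and 14.3 in unshaded libraries (log2 fold change 1.04 ± 0.11, SE). DVR, the divinyl reductase, fell by 0.59 ± 0.06 on the log2 scale and most at 3 d, where the log2 fold change was -0.91 ± 0.14, and CHLG, the chlorophyll synthase, fell by 0.27 ± 0.03. CRD1, the cyclase subunit that acts after CHLM, was also among the 4 that fell.

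Of the haem and bilin branch, 5 of 7 genes were tested. Averaged over times 2 were higher and 2 lower, against 34.6% and 35.9% of all genes. HO1, the haem oxygenase that opens the route to the phytochrome chromophore, rose by 0.54 ± 0.03 on the log2 scale (SE, adjusted p = 4.63e-10). Its rise was largest at 1 d, at 0.87 ± 0.07. The ferrochelatases FC1 and FC2, which insert iron to make haem, each fell by 0.29 on the log2 scale (SE 0.02 and 0.04). Over the 3 lists together 24 genes were tested and 19 were called, 8 higher and 11 lower, against the 70.5% of all genes. The count by time went from 1 higher and 1 lower at 30 min (3.69% and 2.29% of all genes) to 3 higher and 11 lower at 5 d (22.2% and 33.7%).

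**Figure D4:**
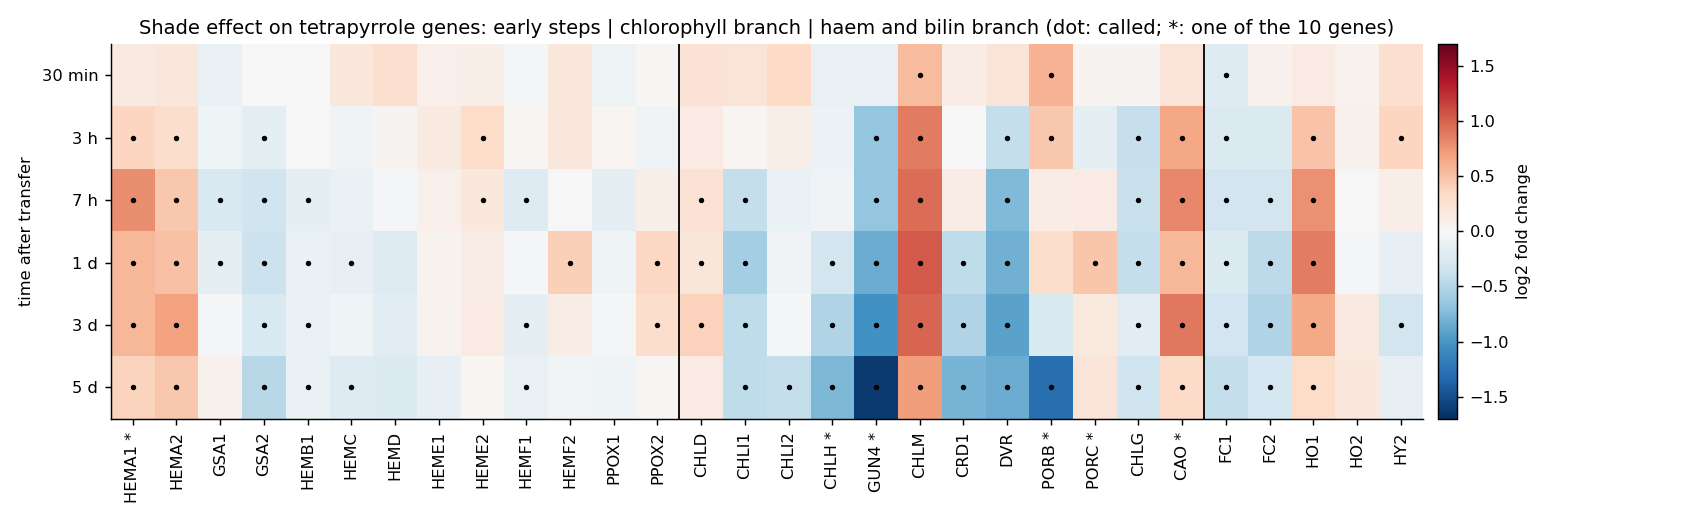
Log2 fold change of FPKM + 1, shaded over unshaded (colour scale), for the tested genes of the tetrapyrrole pathway (columns, with those of the 10 genes marked by a star) at each time (rows), with a dot where the adjusted p-value was under 0.05. HEMA1, HEMA2, CHLM, CAO and HO1 form red columns, while GUN4, DVR and, at the late times, CHLH and PORB are blue.

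Among the 7 tested genes, Pearson's r of log2(FPKM + 1) across the 24 libraries was 0.91 for GLK2 with CAO, 0.86 for HEMA1 with CAO and 0.76 for GLK2 with HEMA1. It was 0.14 for GLK2 with CHLH and -0.54 for HEMA1 with GUN4. The libraries share light, time and scaling, so these values describe the course and carry no test. Outside the 10 genes, the patterns most like GLK2 were those of MPK9, a MAP kinase (r = 0.949), AT3G53990 (0.946) and AT1G78460, annotated as a SOUL haem-binding protein (0.934). For CAO they were AT1G56700, AT5G03180 and AT3G56680 (r = 0.965, 0.962 and 0.960), and for HEMA1 AT1G52342, AT5G18630 and AT5G05100 (0.972, 0.969 and 0.968).

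The patterns most like CHLH were those of CAT2, catalase (r = 0.932), AT1G74470, annotated as a pyridine nucleotide-disulfide oxidoreductase (0.929), and CRD1 (0.920). For GUN4 they were AT5G36160, TMN6 and FT1 (r = 0.933, 0.928 and 0.921). PORB was closest to ABCG3, PRK and GH9B1 (r = 0.865, 0.864 and 0.856), of which PRK is phosphoribulokinase of the Calvin cycle. PORC was closest to MRN1, PP2-A14 and AT1G73130 (r = 0.958, 0.930 and 0.928).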

How the data were processed

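RNA sequencing of whole Arabidopsis roots gave 24 libraries in 12 groups, and 16 tomato samples of the series were not used here. The authors deposited FPKM values in 1 table, and the submitters' processing notes name Cufflinks 2.1.1 and TAIR10 without their roles. The aligner, filters and treatment of reads that match several genes are not given in the sources used here. All columns were matched to samples by title, and 0 columns were left unmatched.

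FPKM sums of 884979 to 994315 per library were left unscaled. Values were tested as log2(FPKM + 1) for 19553 genes with a mean of at least 1 FPKM, in limma 3.58.1 with R 4.3.3, with 1 mean per group and an intensity trend. Benjamini-Hochberg adjustment ran over all genes tested within a comparison. An exact permutation test of 2 against 2 libraries cannot give a p under 0.333, so calls rest on the spread shared by all groups. GLK1, GNC and PORA fell below the minimum and were also fitted without it. Log2 ratios of relatives were tested by permuting light within times, over all 46656 splits, with 4.3e-05 as the smallest p possible. The tests were tried on simulated data.

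The 10 genes, the lists and the tests were chosen with earlier results of these data known. All 10 genes are named, with the 3 genes of each list with the smallest adjusted p averaged over times, those with the largest rise or fall at 1 time, and the 3 genes most like each tested gene by Pearson's r. CRD1 as a faller and the level of HY5 were added after their values were seen. Positions and upstream sequences came from RefSeq's TAIR10.1 assembly (Biopython 1.88), plots from matplotlib 3.10.9. Alternatives were another pseudocount, no minimum level, 2 scalings, a replicate block, a fit of only the groups compared, and leaving out each library.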

Additional observations from a re-analysis of the deposited data

Results flagged for a closer look

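The effect of shade differed between times for 6 of the 7 tested genes, by limma's interaction test adjusted over all genes. The adjusted p-values were 4.05e-05 for PORB, 0.000192 for CHLH, 0.000276 for GUN4, 0.00106 for HEMA1, 0.00213 for CAO and 0.00744 for GLK2. The same test called 55.8% of all genes, so a difference between times was common in these roots. PORB was the one whose called effects had opposite signs, higher in shade at 30 min and 3 h and lower at 5 d. Its 2 early calls were weak. Both were lost in limma with a replicate block (adjusted p = 0.0774 and 0.0647) and in a fit of only the groups compared (0.115 and 0.121). Outlying libraries were not searched for, as a group had only 2.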

How the results depend on the processing

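Of 434 recomputed values that left out no library, 415 kept their direction and call, 15 lost a call, 2 gained one and 2 changed sign. Both sign changes were the uncalled average of PORB, at 0.00346 with a pseudocount of 0.1 and 0.00254 with equal sums. No pairing by replicate number was seen in the values, as the deviations of same-numbered libraries correlated between -0.029 and 0.065. Such correlations cannot show whether these libraries were grown or handled together. With a replicate block 0 of the 7 genes were called at 30 min and 627 of all genes, and PORB at 3 h and GLK2 at 5 d lost their calls (adjusted p = 0.0647 and 0.0608). In a limma fit of only the groups compared, 0 of the 7 and 176 of all genes were called at 30 min, 2 of the 7 and 1593 of all at 3 h, and 3141 of all in the comparison of 5 d with 7 h. That fit has few degrees of freedom by construction, and the calls lost in it were PORB at 30 min and 3 h (adjusted p = 0.115 and 0.121), GLK2 at 3 h and 5 d (0.0738 and 0.129), HEMA1 at 3 h (0.0600), PORC at 1 d (0.0693), and CAO at 5 d and between 7 h and 5 d (0.0619 and 0.0965). Without the minimum level PORB at 3 h had an adjusted p of 0.0561. The change of HEMA1 with time in unshaded roots lost its call without the minimum level (0.0593), with median-of-ratios scaling (0.144) and with the block (0.0650), and the cause was not tested.

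Leaving out each library kept direction and call for 1781 of 1848 values, and 18 changed sign, of which none (0 of 1685 called values in all settings) had been called. Members called at 30 min ranged from 0 to 1, all genes called at 30 min from 471 to 1222, and at 3 h from 3160 to 5143. The change of PORB with time in shade was lost without the second shaded library of 3 d (0.1). The sign changes were in uncalled effects. The PORB average ranged from -0.0409 to 0.0152 and its 7 h effect from -0.0413 to 0.295. At 30 min GLK2 ranged from -0.174 to 0.0261, GUN4 from -0.263 to 0.0149 and PORC from -0.0573 to 0.16. PORC at 3 h ranged from -0.348 to 0.00788, CHLH at 7 h from -0.121 to 0.00622, and PORC at 5 d against 7 h from -0.0716 to 0.231. Values of GLK1 and PORA rest on so few steps that differences in them are limited by depth.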

Other observations

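Chlorophyll turnover genes are on a list of their own. Of 8 tested, 4 were higher and 1 was lower averaged over times, where 34.6% of all genes were higher and 35.9% lower. Their median log2 fold change was 0.15. With 8 genes these counts say little about the list. At 3 h 0 were higher and 1 was lower, against 15.2% and 10.5% of all genes. At 1 d 5 were higher and 0 lower, against 28.3% and 22.6%. At 5 d 1 was higher and 1 lower, against 22.2% and 33.7%, with a median log2 fold change of -0.13. NYC1, a chlorophyll b reductase, rose by 0.36 ± 0.04 averaged over times (SE, adjusted p = 3.1e-06), and most at 3 d, by 0.87 ± 0.11. On the same average PPH, which removes the phytol tail of pheophytin, rose by 0.27 ± 0.03, and HCAR, which turns hydroxymethyl chlorophyll back into the a form, by 0.30 ± 0.05. RCCR, the reductase of red chlorophyll catabolite, fell at 3 h (log2 fold change -0.45 ± 0.10, SE, adjusted p = 0.00494).

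Of 9 other regulators 8 were tested, with 2 higher and 4 lower averaged over times, where 34.6% of all genes were higher and 35.9% lower. HY5 itself had a mean of 69.2 ± 6.68 FPKM in shaded and 79.1 ± 10.7 in unshaded libraries (SD, n = 12). HYH, the close relative of HY5, fell by 0.48 ± 0.04 on the log2 scale (SE, adjusted p = 8.53e-08), and most at 7 h, by 0.65. FHY3, a transcription factor of far-red light signalling, rose by 0.14 ± 0.01, and FLU, a negative regulator of aminolevulinic acid synthesis, by 0.18 ± 0.03. PIF1, a phytochrome-interacting factor, rose at 30 min by 0.41 ± 0.09 (SE, adjusted p = 0.0108). Among root markers, 3 of 11 were higher and 4 lower, close to the same shares of all genes: RHD6, a root hair factor, fell by 0.37 on the log2 scale, CASP1 of the endodermis rose by 0.15, and PYK10 had an average of -0.20 but rose at 5 d by 0.60 ± 0.11.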
